A study of Mus musculus with 24 samples.

Results

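The genes described here are the 2 receptors and 2 main substrates of insulin and IGF-1 signalling: Insr, Igf1r, Irs1 and Irs2. They were found by symbol, 4 of the 32719 genes counted in 24 RNA-seq libraries of mouse primary cortical astrocytes, and each of the 4 passed the filter on low counts, which left 15599 genes. The cells came from newborn pups homozygous for a floxed insulin receptor allele, so every group carries that allele. IRKO cells had received an adenovirus encoding Cre:GFP and IRflox cells an adenovirus encoding GFP alone, 5 days before use. Cultures of every group are labelled as day 14 in vitro. Genotype and virus go together and cannot be told apart. After overnight serum starvation in medium with BSA, each kind of cell was given insulin or IGF-1, both at 100 nM, or vehicle for 6 h, with 4 libraries in each of the 6 groups. Nothing in the labels ties replicates to separate cultures or litters, so a p-value here measures how far these libraries spread, which could be technical variation only.

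The insulin receptor and the IGF-1 receptor are closely related tyrosine kinases that form homodimers and hybrids with each other. Insulin at high concentration also binds the IGF-1 receptor, and IGF-1 the insulin receptor, each with lower affinity than its own receptor. The activated receptors phosphorylate the docking proteins IRS1 and IRS2, which recruit PI3-kinase and start AKT signalling, and AKT in turn keeps FOXO transcription factors out of the nucleus. In other tissues, FOXO factors are known to raise Insr and Irs2 transcription when insulin is low, and in mouse liver SREBP-1 is known to repress Irs2. In brain, astrocytes are the main glial cells, and their insulin receptors are known for a part in glucose sensing and uptake.

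Library totals ran between 15429688 and 19010986 counts. At that depth the 4 genes had 475 to 1108 counts per library for Insr, 1374 to 3903 for Igf1r, 1994 to 3226 for Irs1 and 5573 to 8181 for Irs2. The 12 astrocyte markers, among them Gfap and Aqp4, summed to 4227.8 to 4776.1 CPM (counts scaled by library size) in every library. The 15 microglia markers summed to 1079.9 to 1541.0 CPM, with each of the 15 counted in every group. Sums were 124.9 to 174.2 CPM for 10 neuronal markers and 306.2 to 492.7 CPM for 10 markers of the oligodendrocyte lineage. A few genes made up most of both. In IRflox vehicle libraries Stmn2 had 64.8 to 71.6 CPM and Map2 57.3 to 64.6 CPM. Rbfox3, Snap25, Nefl, Dcx and Slc17a7 had at most 0.632 CPM there, and the other neuronal markers lay between. Of the oligodendrocyte lineage, Olig1 had 106 to 122, Olig2 61.4 to 77.2 and Cnp 62.6 to 65.5 CPM there. Sox10 and Mog had at most 0.574 CPM, and the others lay between. Sums were 345.2 to 433.9 CPM for 10 fibroblast and mural markers and 6.42 to 12.3 CPM for 8 endothelial markers. The 8 liver markers summed to 0.517 to 14.4 CPM, with 4.72 to 14.4 CPM in IRflox insulin libraries and 0.517 to 0.849 CPM in IRflox vehicle libraries. In bulk RNA, fewer cells of a type and less RNA per cell cannot be told apart.

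Promoters are shown because the 4 genes moved in the same direction under both ligands. Those of Igf1r, Irs1 and Irs2 were matched by symbol in the RefSeq table, 3 of the 4. Each is the 250 bases before the RefSeq gene start (GRCm38.p6), read 5′ to 3′ on the gene's strand: Igf1r at chr7:67952007-67952256 on the plus strand, Irs1 at chr1:82291440-82291689 on the minus strand, and Irs2 at chr8:11008930-11009179 on the minus strand. Capitals mark 2 motifs, TTGTTTTG (CAAAACAA on the other strand, the core of the insulin response sequence bound by FOXO factors) and CACGTG (the E-box core).
Igf1r: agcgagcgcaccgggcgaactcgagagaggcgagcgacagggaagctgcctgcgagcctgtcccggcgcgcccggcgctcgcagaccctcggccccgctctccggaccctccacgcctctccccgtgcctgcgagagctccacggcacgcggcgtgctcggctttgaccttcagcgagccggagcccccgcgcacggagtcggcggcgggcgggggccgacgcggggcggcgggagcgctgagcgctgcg
Irs1: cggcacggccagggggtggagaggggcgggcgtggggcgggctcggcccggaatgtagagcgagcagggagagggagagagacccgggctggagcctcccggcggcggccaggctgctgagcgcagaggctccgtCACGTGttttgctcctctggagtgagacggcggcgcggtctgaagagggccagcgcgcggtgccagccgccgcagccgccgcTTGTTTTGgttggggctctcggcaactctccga
Irs2: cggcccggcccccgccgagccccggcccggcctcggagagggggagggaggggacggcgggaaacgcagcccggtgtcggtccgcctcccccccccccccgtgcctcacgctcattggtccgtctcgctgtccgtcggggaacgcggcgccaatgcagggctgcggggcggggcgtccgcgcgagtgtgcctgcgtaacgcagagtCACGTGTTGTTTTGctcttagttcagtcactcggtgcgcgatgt
Irs1 and Irs2 each hold 1 match to TTGTTTTG, at positions -33 to -26 and -38 to -31 from the start, and 1 match to CACGTG, at -115 to -110 and -44 to -39. In Irs2 the E-box core stands directly before TTGTTTTG without overlap. Neither motif occurs in these letters of Igf1r. Of all 32851 windows of this length before a gene start, 2.21% hold TTGTTTTG and 6.02% hold CACGTG on either strand. The FOXO motif TGTTTAC, found in 3.17% of windows, and the sterol response element TCACNCCAC, found in 1.05%, occur in none of the 3. The windows are rich in G and C, at 77.6% for Igf1r, 72.4% for Irs1 and 72.8% for Irs2, against a median of 52.4% over all windows. A match describes the letters only. The RefSeq starts used here differ from the starts in the annotation given next, so positions and missing matches hold for these windows only.

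In the GENCODE M21 annotation of the same build (mm10), Insr spans chr8:3122061-3279617 on the minus strand, Igf1r chr7:67952827-68233668 on the plus strand, Irs1 chr1:82233101-82291416 on the minus strand and Irs2 chr8:10984681-11008458 on the minus strand. Counts cover all exons of a gene, 13746 bases for Insr, 16791 for Igf1r, 9144 for Irs1 and 6323 for Irs2, untranslated regions included. Irs1 values are uncertain: 30.9% of its exon length is shared with Gm9747, a gene on the opposite strand at chr1:82233112-82235933, and libraries without strand information cannot separate both genes. Gm9747 had 656 to 1177 counts per library, 32.0 to 42.3% of those of Irs1. From which gene these reads came is not known.

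Per length of exon, Irs2 stood highest, then Irs1, Igf1r and Insr, in each of the 6 groups, and no library of one gene reached the level of its neighbour in that order. In vehicle-treated cells Irs2 had 62.8 ± 2.76 CPM per kb in IRKO and 71.5 ± 2.34 in IRflox, and Irs1 had 17.8 ± 0.222 and 18.7 ± 0.149 (SD, n = 4 each). Igf1r had 11.9 ± 0.201 CPM per kb in IRKO and 11.4 ± 0.119 in IRflox, and Insr, the least abundant, had 2.94 ± 0.180 and 4.48 ± 0.262. Irs1 reads outside Gm9747, over the remaining 6322 bases, gave 15.8 to 17.4 CPM per kb in IRKO vehicle libraries and at least 17.2 in IRflox vehicle libraries, which leaves Irs1 above Igf1r there.

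**Figure D1:**
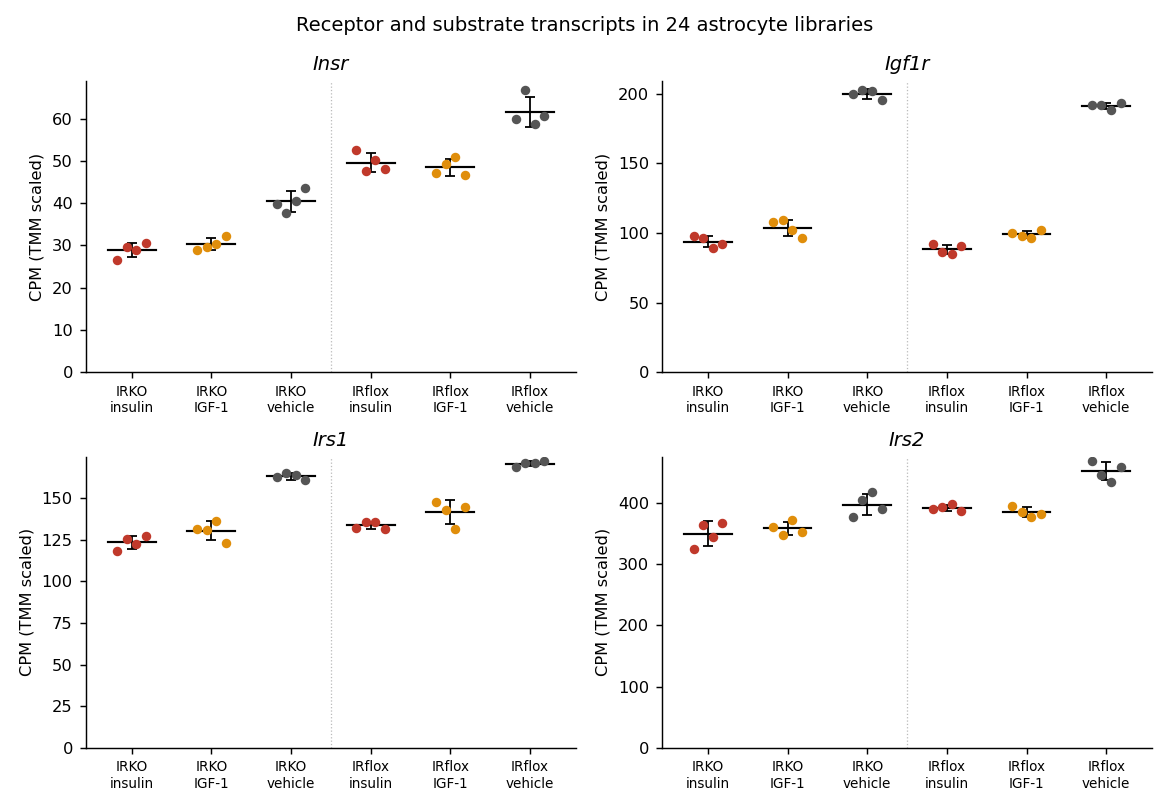
CPM of Insr, Igf1r, Irs1 and Irs2 in each of the 24 libraries (points), by group, with the group mean and SD (lines and bars, n = 4). Insr separates by genotype at every treatment, Igf1r separates by ligand and falls to about the same level in both genotypes, and Irs1 and Irs2 show smaller steps.

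Igf1r, which encodes the receptor for IGF-1, fell furthest of the 4 under both ligands. In IRKO cells it had 97.5, 96.4, 89.3 and 92.0 CPM with insulin, 107.6, 109.2, 102.1 and 96.3 CPM with IGF-1, and 199.8, 202.8, 202.1 and 195.4 CPM with vehicle. In IRflox cells it had 91.8, 86.0, 85.0 and 90.6 CPM with insulin, 100.0, 97.7, 96.3 and 102.2 CPM with IGF-1, and 192.1, 191.7, 188.5 and 193.2 CPM with vehicle. Every ligand-treated library lay far below every vehicle library of its genotype. With insulin the level was 46.9% of vehicle in IRKO cells (log2 difference -1.09, SE 0.04, edgeR adjusted p = 9.06e-25) and 46.2% in IRflox cells (-1.11, SE 0.04, adjusted p = 4.69e-25). With IGF-1 it was 51.9% of vehicle in IRKO cells (log2 difference -0.95, SE 0.039, adjusted p = 4.18e-23) and 51.8% in IRflox cells (-0.95, SE 0.04, adjusted p = 4.2e-23). Of all 15599 genes tested, 0.962% had a lower log2 difference than Igf1r with insulin in IRKO cells and 0.994% in IRflox cells. The same shares with IGF-1 were 2.47% in IRKO cells and 2.35% in IRflox cells.

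Insr, the gene whose allele was floxed, also fell under both ligands. IRKO libraries had 26.6, 29.6, 29.0 and 30.6 CPM with insulin, 29.0, 29.6, 30.3 and 32.2 CPM with IGF-1, and 39.7, 37.7, 40.5 and 43.7 CPM with vehicle. IRflox libraries had 52.6, 47.5, 50.2 and 48.1 CPM with insulin, 47.1, 49.2, 50.9 and 46.7 CPM with IGF-1, and 60.0, 66.9, 58.8 and 60.6 CPM with vehicle. The order of the group means was IRflox vehicle, then both IRflox ligand groups, which overlapped, then IRKO vehicle, then both IRKO ligand groups, which overlapped. With insulin Insr was 28.3% lower than with vehicle in IRKO cells (log2 difference -0.48, SE 0.059, edgeR adjusted p = 5.5e-09) and 19.4% lower in IRflox cells (-0.31, SE 0.054, adjusted p = 7.24e-06). With IGF-1 it was 25% lower in IRKO cells (log2 difference -0.41, adjusted p = 1.07e-07) and 21.1% lower in IRflox cells (-0.34, adjusted p = 1e-06).

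Irs1, a docking protein gene expressed in most tissues, fell by a similar amount. It had 118.3, 125.6, 122.3 and 127.2 CPM with insulin, 131.7, 131.1, 136.3 and 123.0 CPM with IGF-1, and 162.7, 165.3, 164.1 and 160.6 CPM with vehicle in IRKO cells. In IRflox cells it had 131.9, 135.5, 135.7 and 131.5 CPM with insulin, 147.4, 143.1, 131.3 and 144.9 CPM with IGF-1, and 168.8, 171.0, 171.3 and 172.0 CPM with vehicle. Insulin and IGF-1 libraries overlapped in both genotypes, and neither reached its vehicle libraries. With insulin the log2 difference was -0.40 in IRKO cells (edgeR adjusted p = 8.49e-12) and -0.35 in IRflox cells (adjusted p = 2.52e-10), and with IGF-1 it was -0.32 (adjusted p = 1.96e-09) and -0.27 (adjusted p = 9.09e-08). After the counts of Gm9747 were subtracted from those of Irs1, an alternative chosen after seeing the data, these differences were -0.44, -0.36, -0.28 and -0.28, all still called. Gm9747 was assigned 40.7 to 51.7 CPM with insulin and 55.0 to 60.6 CPM with vehicle in IRKO cells. In IRflox cells it was assigned 45.7 to 51.8 CPM with insulin and 58.0 to 62.5 CPM with vehicle. These may be reads of Irs1.

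Irs2, the substrate known for its part in insulin action in liver and in brain growth, fell least. IRKO libraries had 324.2, 364.4, 344.9 and 366.5 CPM with insulin, 361.5, 347.5, 371.7 and 352.3 CPM with IGF-1, and 377.0, 404.5, 417.1 and 389.9 CPM with vehicle. IRflox libraries had 389.3, 393.3, 397.7 and 386.5 CPM with insulin, 395.5, 384.4, 377.1 and 382.7 CPM with IGF-1, and 468.3, 445.8, 434.3 and 458.7 CPM with vehicle. Ligand and vehicle libraries did not overlap within a genotype, while the gap in IRKO cells was narrow. The log2 difference with insulin was -0.18 in IRKO cells (edgeR adjusted p = 0.000115) and -0.21 in IRflox cells (adjusted p = 1.91e-05). With IGF-1 it was -0.15 in IRKO cells (adjusted p = 0.00114) and -0.23 in IRflox cells (adjusted p = 2.16e-06).

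In all, the 4 genes fell in each of the 4 comparisons of a ligand with vehicle, against a background in which a large part of all genes moved. Of the 15599 genes tested, 21.7% fell with insulin in IRKO cells, 21.4% with insulin in IRflox cells, 25.1% with IGF-1 in IRKO cells and 24.4% with IGF-1 in IRflox cells. The shares that rose were 24.7, 24.3, 26.9 and 26.4% in the same order. Libraries without overlap between ligand and vehicle were found for 38.8, 38.1, 44.9 and 43.3% of genes, again in that order. The insulin and IGF-1 comparisons of a genotype share their vehicle libraries, so their likeness is no independent result. Microglia markers moved the same way: 12 of 15 fell with insulin and 11 with IGF-1 in IRKO cells, and 9 and 6 in IRflox cells, none rising. With a microglia score (the mean log2 CPM of the 15 markers in each library) as a covariate in the fit the 16 differences were still called, between -1.04 and -0.27 in IRKO cells and between -1.07 and -0.28 in IRflox cells. Irs2 in IRKO cells moved by over 1.5 times, to -0.29 with insulin and -0.27 with IGF-1. The markers of the oligodendrocyte lineage summed higher with the ligands, at 434.3 to 440.8 CPM with insulin, 461.0 to 492.7 with IGF-1 and 332.1 to 354.2 with vehicle in IRKO cells, and 377.1 to 418.5, 419.5 to 448.3 and 306.2 to 331.3 CPM in IRflox cells. Of the 8 tested, 2 rose and 2 fell with insulin and 3 rose and 3 fell with IGF-1 in IRKO cells, and 3 rose and 1 fell and 2 rose and 3 fell in IRflox cells. Olig1 in IRflox cells had 149 to 179 CPM with insulin, 175 to 203 with IGF-1 and 106 to 122 with vehicle. Olig2 there had 93.9 to 108, 116 to 125 and 61.4 to 77.2 CPM in the same order. Neuronal markers summed to 159.6 to 174.2 CPM with either ligand and 146.5 to 149.9 CPM with vehicle in IRflox cells. Of the 6 tested, 1 rose and 1 fell with each ligand there, with a median log2 difference of -0.17. Stmn2 in these cells had 83.9 to 98.5 CPM with either ligand and 64.8 to 71.6 CPM with vehicle. For IRKO cells the neuronal sums were 133.9 to 146.8 CPM with either ligand and 124.9 to 136.5 CPM with vehicle. There 1 rose and 2 fell with insulin (median -0.41), and 1 rose and 3 fell with IGF-1 (median -0.44). The part of these markers in the 4 genes' differences was not tested.

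**Figure D2:**
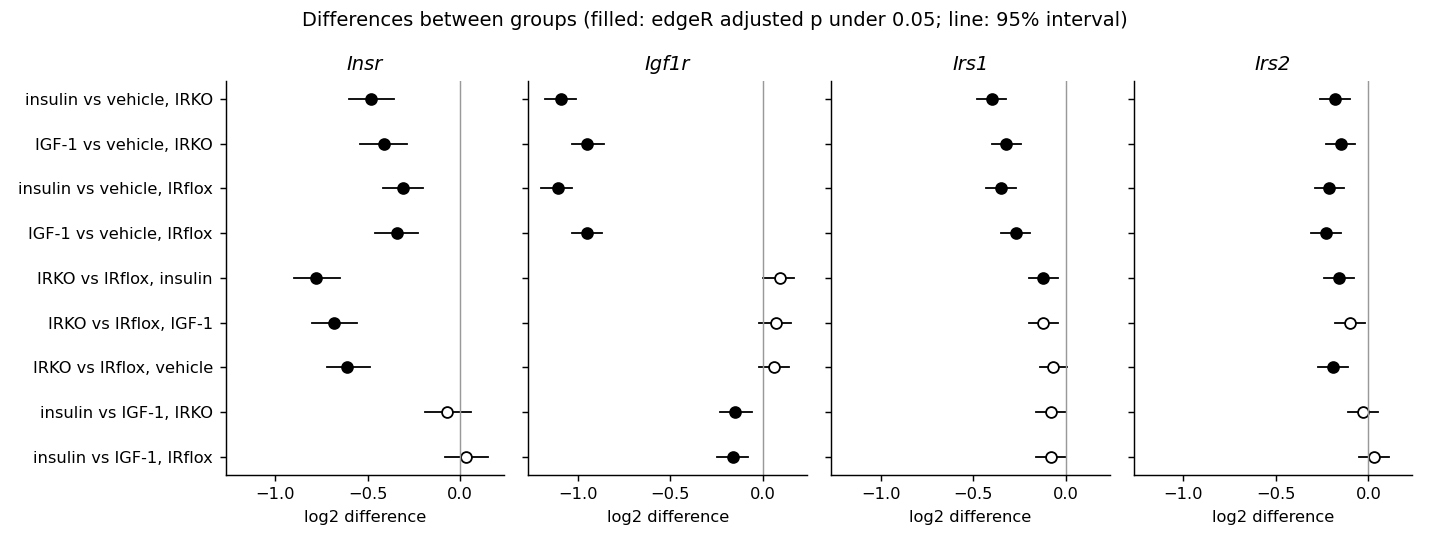
Log2 differences of the 4 genes in each comparison (points) with their 95% intervals, from the fit over all libraries. Igf1r lies near -1 with either ligand in both genotypes, and Insr lies between -0.78 and -0.61 in IRKO against IRflox cells. Filled points were called at an adjusted p under 0.05, and open points, none of them called, lie close to 0.

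The IRKO comparison asks how the receptor system looked where Cre had been delivered, and Insr checks the labels. Under vehicle Insr had 40.4 ± 2.47 CPM in IRKO cells and 61.6 ± 3.60 CPM in IRflox cells (SD, n = 4 each), 65.7% of the IRflox level (log2 difference -0.61, SE 0.055, edgeR adjusted p = 3e-10). Under insulin it was 58.4% of the IRflox level (-0.78, adjusted p = 1.56e-12) and under IGF-1 62.5% (-0.68, adjusted p = 1.17e-10). Every IRKO library was below every IRflox library at the same treatment, as the labels give them, and 11.3, 15 and 13.2% of all genes had libraries without overlap in the 3 comparisons, in the order vehicle, insulin, IGF-1. The labels do not say which part of Insr lies between the loxP sites, and counts include reads from exons outside it, so the remaining level does not measure intact transcript or receptor protein.

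The other receptor did not pass the test between genotypes. Igf1r averaged 200.0 ± 3.38 CPM in IRKO vehicle cells and 191.4 ± 2.00 CPM in IRflox vehicle cells, a log2 difference of 0.06 (95% interval -0.02 to 0.14, edgeR adjusted p = 0.351), although the 4 IRKO libraries all lay above the 4 IRflox libraries. The differences under insulin and IGF-1 were 0.09 (adjusted p = 0.193) and 0.07 (adjusted p = 0.381), with libraries that overlapped. Irs2 was lower in IRKO cells under vehicle (log2 difference -0.19, adjusted p = 0.000868) and insulin (-0.16, adjusted p = 0.00331), and had -0.10 under IGF-1 (adjusted p = 0.0981). Irs1 had -0.07 under vehicle (adjusted p = 0.329) and -0.12 under IGF-1 (adjusted p = 0.0532), and was lower under insulin by a margin close to the threshold (-0.12, adjusted p = 0.0445).

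Thus 2 of the 4 genes fell in IRKO against IRflox cells with vehicle, 3 with insulin and 1 with IGF-1, where 4.1, 5.53 and 3.15% of all genes tested fell. The microglia markers went the other way, with 12 of 15 higher in IRKO cells with vehicle, 9 with insulin and 6 with IGF-1, and sums of 1520.0 to 1541.0 CPM in IRKO vehicle cells and 1241.5 to 1301.2 CPM in IRflox vehicle cells. With the microglia score in the fit, Insr was still lower in IRKO cells under vehicle (-0.48, adjusted p = 0.0338), insulin (-0.67, adjusted p = 6.39e-05) and IGF-1 (-0.63, adjusted p = 1.86e-07). In that fit Irs2 was no longer called under vehicle (-0.07, adjusted p = 0.728) or insulin (-0.07, adjusted p = 0.655), and neither was Irs1 under insulin (-0.06, adjusted p = 0.714). Its SEs were wider, under vehicle 0.075 against 0.038 for Irs2 and 0.11 against 0.055 for Insr. The call of Irs1 under insulin was also lost without any 1 of 7 of its 8 libraries (adjusted p 0.057 to 0.148), the exception being IRKO insulin replicate 4, and with Gm9747 counts subtracted (-0.15, adjusted p = 0.065).

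The test of whether genotype changed a response gave no call. For Insr the fall with insulin was larger in IRKO than in IRflox cells by 0.17 on the log2 scale (-0.17, 95% interval -0.34 to -0.00, unadjusted p = 0.0391, edgeR adjusted p = 0.893), and the IGF-1 response differed by -0.07 (interval -0.24 to 0.10). The response of Igf1r differed by 0.02 for insulin (interval -0.10 to 0.14) and by 0.00 for IGF-1 (interval -0.11 to 0.12). For Irs1 both responses differed by -0.05 (interval -0.16 to 0.06), and for Irs2 by 0.02 for insulin (interval -0.09 to 0.14) and 0.08 for IGF-1 (interval -0.03 to 0.20). Over all 15599 genes edgeR called 0 in either response, a background of 0%, while 838 genes for insulin (5.37%) and 822 for IGF-1 (5.27%) had an unadjusted p under 0.05, and DESeq2 called 0 and 2.

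Insulin and IGF-1, given at the same dose and for the same time, differed in 1 of the 4 genes. Igf1r was lower with insulin than with IGF-1, at 93.8 ± 3.85 CPM against 103.8 ± 5.83 CPM in IRKO cells (log2 difference -0.15, edgeR adjusted p = 0.0394) and at 88.4 ± 3.37 CPM against 99.1 ± 2.57 CPM in IRflox cells (-0.16, adjusted p = 0.0177). Libraries overlapped in IRKO cells and did not overlap in IRflox cells. Across all genes 1.61% were lower with insulin than with IGF-1 in IRKO cells and 1.1% in IRflox cells, and 8.89 and 7.8% had libraries without overlap. Both calls sat near the threshold: leaving out 1 library gave adjusted p of 0.00877 to 0.164 in IRKO cells and 0.0143 to 0.0808 in IRflox cells. The call was lost in IRKO cells without insulin replicate 3 or 4 or IGF-1 replicate 1, 2 or 3, and in IRflox cells without insulin replicate 2 or 3 or IGF-1 replicate 1 or 4. With the microglia score the IRflox call was lost (adjusted p = 0.12) and the IRKO call kept (adjusted p = 0.032). The other 3 genes had differences of -0.08 to 0.03 in either genotype, with 95% intervals between -0.19 and 0.15, and libraries of the 2 ligands overlapped.

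Because each receptor was counted in the same library, the ratio of Igf1r to Insr does not depend on library scaling. Per length of exon it was 2.66 ± 0.240 with insulin, 2.81 ± 0.276 with IGF-1 and 4.07 ± 0.305 with vehicle in IRKO cells, and 1.46 ± 0.0686, 1.68 ± 0.109 and 2.55 ± 0.136 in IRflox cells (SD, n = 4 each). Both ligands lowered the ratio, since Igf1r fell further than Insr, and IRKO cells had the higher ratio at each treatment. The genotype difference restates the lower Insr of IRKO cells, the gene targeted by design, since Igf1r was not called between genotypes. Insr counts include exons outside the floxed part, so the ratio does not measure intact receptor transcripts. In log2, the ratio differed between ligand and vehicle by -0.61 with insulin and -0.53 with IGF-1 in IRKO cells and by -0.80 and -0.61 in IRflox cells, and between IRKO and IRflox by 0.67 with vehicle, 0.86 with insulin and 0.74 with IGF-1. Libraries did not overlap in any of these 7 comparisons (2-sided exact permutation p = 0.0286 each, 0.0364 after Benjamini-Hochberg adjustment over 14 ratio tests), and 0.0286 is the smallest p that 4 libraries against 4 can give. With insulin the ratio in IRKO cells, 2.46 to 3.00, overlapped the 2.35 to 2.62 of vehicle-treated IRflox cells.

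The ratio of Irs2 to Irs1 moved less. Per length it was 4.10 ± 0.105 with insulin, 3.97 ± 0.128 with IGF-1 and 3.52 ± 0.133 with vehicle in IRKO cells, and 4.24 ± 0.0303, 3.93 ± 0.149 and 3.83 ± 0.145 in IRflox cells. The log2 ratio was higher with insulin than with vehicle by 0.22 in IRKO and 0.15 in IRflox cells, and with IGF-1 by 0.18 in IRKO cells (exact permutation, adjusted p = 0.0364 each), while with IGF-1 in IRflox cells the difference was 0.04 (adjusted p = 0.369). Between IRKO and IRflox cells it differed by -0.12 with vehicle (adjusted p = 0.0667), -0.05 with insulin (adjusted p = 0.0364) and 0.01 with IGF-1 (adjusted p = 0.6). The overlap of Irs1 with Gm9747 bears on these ratios too.

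**Figure D3:**
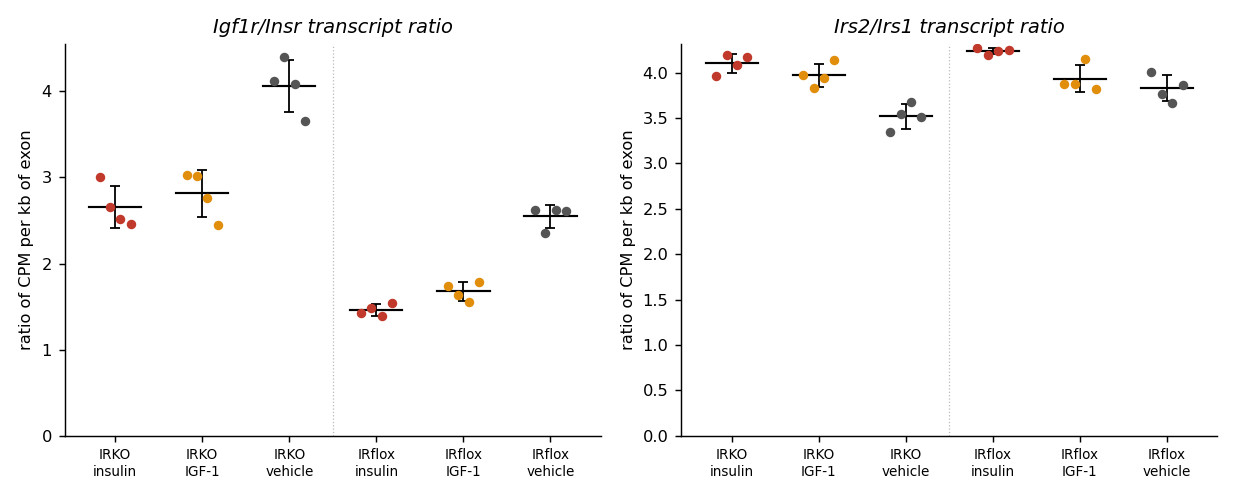
Ratio of Igf1r to Insr (left) and of Irs2 to Irs1 (right), as CPM per kb of exon, in each library (points) with the group mean and SD (n = 4). The receptor ratio is highest in vehicle-treated IRKO cells, at 3.66 to 4.40, and lowest in insulin-treated IRflox cells, at 1.39 to 1.54, and the substrate ratio stays between 3.35 and 4.27.

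The genes most like each of the 4 were ranked by Pearson correlation of log2 CPM over the 24 libraries among 12085 genes with adequate counts. The libraries share their groups, so the values describe the common steps between groups and carry no p. Igf1r was followed most closely by Wdr81 (r = 0.984), Cyren (0.982), Prelp, a matrix proteoglycan gene (0.981), Tmem140 (0.978) and Mbtps1, which encodes the site-1 protease that activates SREBPs (0.977). Cyren and Tmem140 share 50.8% and 37% of their exon length with other counted genes and are uncertain. For Irs1 these were Sgpl1 (0.963), Plekhm3 (0.956), Pawr (0.954), Ubn1 (0.953) and the sphingomyelin synthase gene Sgms2 (0.953). For Irs2 they were Rasal2 (0.930), Tcf4 (0.929), Col4a6 (0.926), Pfkp, a glycolytic phosphofructokinase gene (0.917), and Bicc1 (0.914). For Insr they were the protocadherin gene Pcdh10 (0.939), Lima1 (0.931), Cd200 (0.931), Rasal2 (0.923) and Maoa, which encodes monoamine oxidase A (0.917). In log2 difference with insulin in IRflox cells, the 5 genes near Igf1r had -0.92, -1.89, -0.77, -2.15 and -0.47, in the order named, against -1.11 for Igf1r itself.

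Around the receptors and substrates, 94 other genes of the pathway were listed, of which 86 passed the filter on low counts. The 8 that did not pass were Irs3, Irs4, Shc2, Grb7, Ins1, Ins2, Igfbp1 and Igfbp6. Of the 86, 24 rose and 23 fell with insulin in IRKO cells, 26 rose and 24 fell with insulin in IRflox cells, 29 rose and 25 fell with IGF-1 in IRKO cells, and 25 rose and 25 fell with IGF-1 in IRflox cells. Over all genes tested, 24.7% rose and 21.7% fell with insulin in IRKO cells, and 24.3% rose and 21.4% fell in IRflox cells. With IGF-1 these shares were 26.9 and 25.1% in IRKO cells and 26.4 and 24.4% in IRflox cells. The shares with insulin in IRflox cells are also the background for the list counts below. The median log2 differences of the 86 lay between -0.03 and 0.03 and those of all genes tested between 0.00 and 0.01, so the pathway did not move one way as the 4 genes did. The genes named next are from the 2 with the lowest p in each of 5 lists per comparison.

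Of the 19 adaptors and docking proteins tested, 6 rose and 5 fell with insulin in IRflox cells. Gab2, a docking protein related to the IRS family, had 41.8 ± 1.96 CPM with insulin and 63.1 ± 5.04 CPM with vehicle in IRKO cells (log2 difference -0.60, edgeR adjusted p = 5.82e-11), and 43.7 ± 4.54 and 65.0 ± 3.74 CPM in IRflox cells (-0.57, adjusted p = 1.86e-10). With IGF-1 Gab2 fell by 0.50 in IRKO and 0.52 in IRflox cells. Rack1, a scaffold protein gene, rose with IGF-1 by 0.44 in IRKO and 0.51 in IRflox cells, and with insulin by 0.34 and 0.39. Of the 21 brakes on receptors and substrates tested, 5 rose and 3 fell with insulin in IRflox cells. Cul7, the cullin of a ubiquitin ligase that targets IRS1, fell in the 4 ligand comparisons, with log2 differences between -0.44 and -0.34. Cav1, which encodes the main coat protein of caveolae, rose in all 4, by 0.38 to 0.57.

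Among the 24 PI3-kinase and AKT genes, 5 rose and 9 fell with insulin in IRflox cells. Pik3ip1, an inhibitor of PI3-kinase, had 55.5 ± 2.75 CPM with insulin and 114.9 ± 5.91 CPM with vehicle in IRKO cells (-1.05, adjusted p = 6.75e-21), and 53.7 ± 4.04 and 122.3 ± 2.72 CPM in IRflox cells (-1.19, adjusted p = 1.23e-22), a larger drop than that of Igf1r in IRflox cells. Pik3ca, the catalytic subunit p110 alpha, fell by 0.68 with either ligand in IRflox cells and by 0.70 with IGF-1 in IRKO cells. The 16 ligand, binding protein and other receptor genes tested had 6 that rose and 5 that fell with insulin in IRflox cells. Pappa, the protease that releases IGF from binding proteins, fell most of the pathway genes named. It had 6.30 ± 0.845 CPM with insulin and 25.3 ± 1.44 CPM with vehicle in IRKO cells. In IRflox cells it had 7.38 ± 0.141 and 26.4 ± 1.89 CPM (log2 difference -1.84, edgeR adjusted p = 1.44e-20). Binding protein genes moved in both directions. Igfbp5 rose with insulin by 0.59 in IRKO and 0.48 in IRflox cells, and with IGF-1 by 0.40 and 0.25. Igfbp3 rose with IGF-1 by 0.84 in IRKO and 0.76 in IRflox cells, and with insulin by 0.56 and 0.50. Of others, chosen after their values were seen, Igfbp7 fell with insulin by 0.13 in IRKO and 0.19 in IRflox cells, and Igfbp4 fell with insulin by 0.16 in IRflox cells and had -0.07 in IRKO cells (adjusted p = 0.341).

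All 6 FOXO and SREBP genes were tested, and 4 rose and 2 fell with insulin in IRflox cells. Srebf1, which encodes SREBP-1, had 249.3 ± 3.73 CPM with insulin and 159.6 ± 5.06 CPM with vehicle in IRKO cells (log2 difference 0.64, edgeR adjusted p = 3.83e-16), and 239.3 ± 10.2 and 171.2 ± 11.9 CPM in IRflox cells (0.48, adjusted p = 1.72e-12). Srebf1 also rose with IGF-1, by 0.46 in IRKO and 0.34 in IRflox cells. Srebf2, which encodes SREBP-2, rose in all 4 ligand comparisons, by 0.33 to 0.38. Foxo4 fell with IGF-1 by 0.91 in IRKO and 0.80 in IRflox cells, and with insulin by 0.83 and 0.76. Foxo3 fell with IGF-1 by 0.29 in IRKO and 0.42 in IRflox cells, and with insulin by 0.16 and 0.29.

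**Figure D4:**
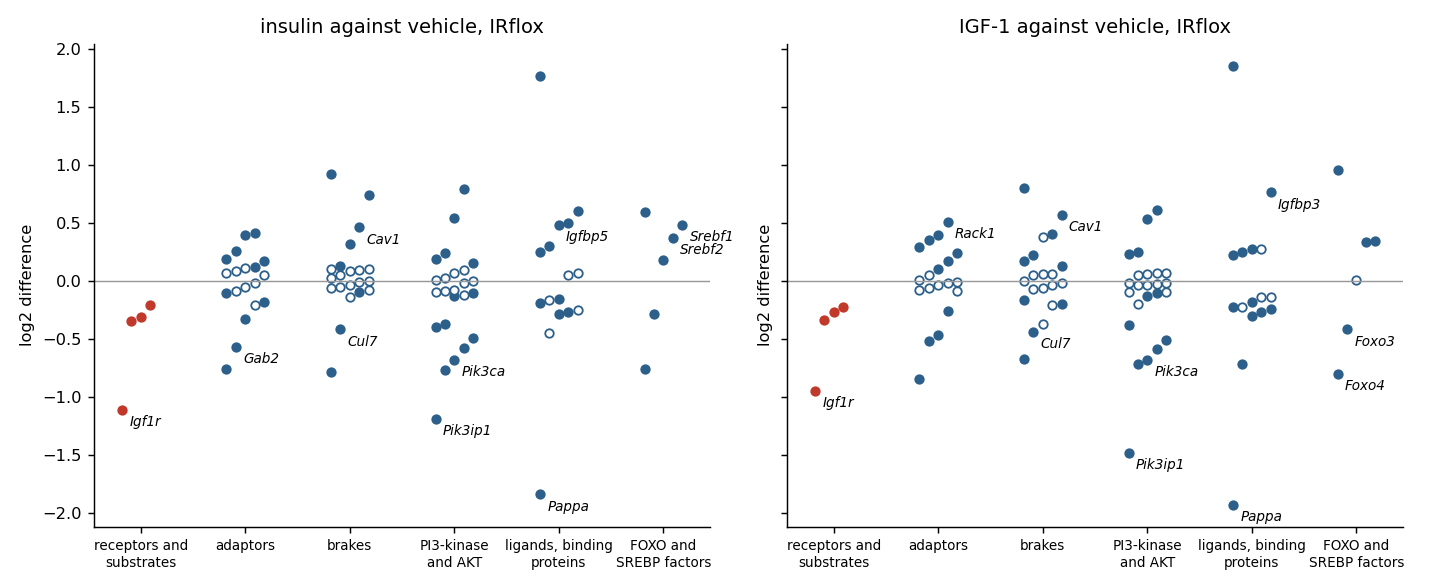
Log2 differences of the 4 receptors and substrates (red) and of 86 pathway genes in 5 lists (blue), with insulin (left) and IGF-1 (right) against vehicle in IRflox cells. Filled points were called at an adjusted p under 0.05, and names mark Igf1r and genes described in the text. Each of the 5 blue lists holds genes on both sides of 0, and Igf1r is lower than all but Pik3ip1 and Pappa among the named genes.

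Between genotypes under vehicle, 5 of the 86 pathway genes were higher in IRKO cells and 6 lower, when 3.76% of all genes were higher and 4.1% lower. Igf1, the gene of the ligand of the IGF-1 receptor, had 38.7 ± 2.44 CPM in IRKO and 27.3 ± 2.02 CPM in IRflox cells (log2 difference 0.51, edgeR adjusted p = 2.93e-06). Pik3cd, the p110 delta subunit known mainly from leukocytes, was higher by 0.34 in IRKO cells, and Ptpre, a tyrosine phosphatase gene, by 0.21. With the microglia score in the fit these 3 were no longer called, at 0.36 for Igf1 (adjusted p = 0.266), 0.27 for Pik3cd (adjusted p = 0.399) and 0.15 for Ptpre (adjusted p = 0.508). Igfbp3 was lower in IRKO cells, with 436.4 ± 36.6 CPM against 624.3 ± 74.4 CPM in IRflox cells (-0.52, adjusted p = 1.16e-08), as were Cav1 (-0.46), Dok4 (-0.32), Phlpp1, an AKT phosphatase gene (-0.27), and Foxo3 (-0.14). Foxo6 was lower too (-0.77, adjusted p = 0.0476), at 1.17 ± 0.658 CPM in IRKO and 1.99 ± 0.281 CPM in IRflox cells. Dok4 shares 31.2% of its exon length with another counted gene and is uncertain. Together 11 of the 86 were called, against 7 without IRflox vehicle replicate 2. With the microglia score in the fit 2 were called, Igfbp3 (-0.58, adjusted p = 0.00693) and Cav1 (-0.49, adjusted p = 0.0145). Of the lost calls, Phlpp1 (-0.19) and Foxo3 (-0.10) had smaller differences in that fit, while Dok4 (-0.34) and Foxo6 (-1.11) did not. The score separated these groups, at 0.204 to 0.28 in IRKO and -0.036 to 0.044 in IRflox vehicle libraries. That makes the fit less precise, so a lost call need not mean a smaller difference.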

How the data were processed

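RNA was measured in 24 libraries, 4 for each of 6 groups, grouped and numbered from the sample titles. Per the labels' protocols, poly-A RNA (2 µg of total RNA per library) was made into non-stranded libraries and read in pairs of 150 bp. The authors deposited raw gene counts, 1 file per library, with no normalization. Per the submitters' processing notes, the tools were STAR 2.7.7a, R 4.0.4, DESeq2 and edgeR and the build mm10, with no roles stated. Which program counted the reads, and on which annotation, is not given in the sources used here. A median of 17.6% of reads fell outside genes, and 3 lines per file that name no gene were left out. Reads of antisense genes cannot be told apart.

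Counts were fitted with edgeR 4.0.16 in R 4.3.3 (quasi-likelihood test, expression filter with minimum count 10 and minimum total 15, TMM scaling, 1 mean per group, all 24 libraries, 18 residual degrees of freedom). A gene was called where its p, adjusted by Benjamini-Hochberg over 15599 genes within each of 11 comparisons, was under 0.05. The 95% intervals are t intervals from the log2 difference and its SE, with 18 degrees of freedom. They were computed apart from the test, so an interval and its p can differ slightly. The biological coefficient of variation was 4.92%, and errors of levels are SDs. The CPM values were computed here from the deposited counts and TMM sizes, and levels per kb were divided by the exon length in GENCODE M21. Within-library ratios were tested by exact permutation in scipy 1.17.1. The fit was tested on simulated data. Libraries of 1 group were no duplicates of each other (chi-square per gene 2.17 to 6.86). Correlations of deviations between libraries with the same number in different groups ran from -0.115 to 0.0611, so the numbers were not taken to pair libraries.

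Pathway genes were named by rule (up to 2 called genes of lowest p in each list, in each ligand comparison and between genotypes under vehicle), and some of the genes this gives are not reported here. The 4 genes, the lists and the microglia covariate were chosen with earlier results of these data known. Alternatives were DESeq2 1.42.0, other scalings, filters and sample sets, a replicate block, the covariate and the leaving out of each library. Genes most like each of the 4 were sought among those with a mean log2 CPM of at least 2.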

Additional observations from a re-analysis of the deposited data

Results flagged for a closer look

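The ratio of Igf1r to Insr in IRflox vehicle cells held 1 library that stood apart: replicate 2 had 2.35 per length, while the other 3 libraries had 2.61 to 2.62. Its gap to the nearest library was 0.963 of the group's range, above Dixon's 95% limit for 4 samples. In that library Insr was the highest of the group at 66.9 CPM and Igf1r was at 191.7 CPM, within the range of the others. Such a gap was looked for in 36 sets of 4 values, and chance gives one in about 1 of 20.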

How the results depend on the processing

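For the 4 genes, the 16 differences between ligand and vehicle kept direction and call in 128 of 128 fits under other settings and in 128 of 128 fits without 1 library. Insr between genotypes also kept its call in each fit. Limits lie with small differences: Insr rests on 475 to 1108 counts per library. Irs1 shares exon sequence with Gm9747, and reads there cannot be assigned to either gene. Where a value below moved, the cause was not tested.

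Replicate numbers did not pair the libraries: 0 of 60 same-numbered pairs correlated above 0.1, and 4 of 24 libraries correlated best with their own number. With a replicate block Irs1 in IRKO against IRflox cells under insulin was -0.12 (edgeR adjusted p = 0.0545), and no other call of the 4 genes changed. Paired sign flips of the ratios gave unchanged differences, for Igf1r to Insr of -0.80, -0.61, -0.61, -0.53, 0.67, 0.86 and 0.74 and for Irs2 to Irs1 of 0.15, 0.22, 0.18 and -0.05, but 4 pairs are too few for such a test to pass. Without 1 library the smallest exact p is 0.0571, so no ratio could pass there either.

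By library size alone Irs1 under insulin between genotypes was -0.10 (adjusted p = 0.0837), Igf1r with insulin against IGF-1 in IRKO cells -0.13 (adjusted p = 0.0638), and the genotype difference of the Igf1r response to IGF-1 turned to -0.01. Of the 86 pathway genes, 7 were called between ligands in IRKO cells, against 4 in the fit reported. Relative log expression scaling and DESeq2 called Irs1 lower in IRKO cells under IGF-1 (-0.12 in both, adjusted p 0.0445 and 0.0246). DESeq2 also called 5 pathway genes between ligands in IRflox cells, against 3, and 7 in IRKO cells, and 2 of all genes for a genotype difference in the IGF-1 response. Without the filter Irs1 under insulin was -0.12 (adjusted p = 0.0681), 7 pathway genes were called between ligands in IRKO cells, the Igf1r difference in IGF-1 response was -0.01, and 19 genes were called for each response. A minimum mean of 1 CPM gave 5 pathway genes between ligands in IRflox cells. Fits on the compared groups alone gave Irs1 under insulin -0.12 (adjusted p = 0.0624), Irs2 under IGF-1 -0.10 between genotypes (adjusted p = 0.0496, now called), Igf1r between ligands in IRKO cells -0.15 (adjusted p = 0.0549), an Igf1r difference in IGF-1 response of -0.01 and 7 pathway genes between genotypes under vehicle, against 11. With Gm9747 counts subtracted, Irs1 under insulin was -0.15 and its difference in IGF-1 response 0.01.

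The microglia score as a covariate cut the counts of all genes called to 3781 (insulin) and 4109 (IGF-1) in IRKO cells and 4408 (insulin) in IRflox cells against vehicle, to 112 under vehicle and 332 under insulin between genotypes, and to 227 between ligands in IRflox cells. Pathway genes called were 33 with IGF-1 in IRKO cells, 2, 4 and 6 between genotypes under vehicle, insulin and IGF-1, and 7 between ligands in IRKO cells. Between genotypes Irs2 was -0.07 under vehicle and under insulin, against -0.19 and -0.16 in the fit reported. Irs1 was -0.06 under insulin, against -0.12. Between ligands in IRflox cells Igf1r was -0.15, and Insr and Irs2 turned to -0.01. The score differs between groups, so the covariate widens errors, and a lost call need not mean a smaller difference. For Irs2 and Irs1 between genotypes the differences were smaller as well.

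Without 1 library at a time, the log2 ratio of Igf1r to Insr ranged, for insulin and IGF-1 against vehicle, over -0.67 to -0.57 and -0.58 to -0.47 in IRKO cells and -0.84 to -0.78 and -0.65 to -0.57 in IRflox cells. Between genotypes it ranged over 0.63 to 0.72 with vehicle, 0.80 to 0.90 with insulin and 0.71 to 0.81 with IGF-1. The ratio of Irs2 to Irs1 ranged over 0.20 to 0.24 and 0.15 to 0.20 for insulin and IGF-1 in IRKO cells, 0.13 to 0.17 for insulin in IRflox cells, and -0.06 to -0.03 and -0.01 to 0.04 between genotypes under insulin and IGF-1. Irs1 between genotypes ranged over -0.13 to -0.10 with insulin and -0.16 to -0.09 with IGF-1, where it was called without IRKO replicate 3 or IRflox replicate 3. Igf1r between ligands ranged over -0.19 to -0.12 in IRKO and -0.18 to -0.15 in IRflox cells. Differences in response ranged over -0.00 to 0.05 (insulin) and -0.02 to 0.03 (IGF-1) for Igf1r and -0.00 to 0.06 (insulin) for Irs2. Genes called ranged over 0 to 4 for the insulin response, over 267 to 402 between ligands in IRKO cells and over 247 to 424 in IRflox cells, and pathway genes over 7 to 11 and 7 to 9 between genotypes under vehicle and IGF-1 and 3 to 5 between ligands in IRflox cells.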
